A study of Homo sapiens with 183 samples.

Results

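The 10 genes described here are negative-feedback and output genes of the RAS-ERK pathway: the phosphatase genes DUSP4, DUSP5 and DUSP6, the inhibitor genes SPRY2, SPRY4, SPRED1 and SPRED2, the transcription factor genes ETV4 and ETV5, and PHLDA1. They were taken by name from 19875 gene rows that were the same in 8 deposited tables, and were chosen with earlier results of these data known. All 10 had a value in all 183 libraries. The libraries measured messenger RNA in 9 human cancer cell lines. Pancreatic ductal adenocarcinoma is represented by BxPC-3, CFPAC-1, AsPC-1, T3M-4 and SUIT-2, and of the others T84 is a colorectal carcinoma line, A375 a melanoma line, H1048 a small cell lung cancer line and RH30 a rhabdomyosarcoma line.

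The pancreatic lines expressed Cas9 and were collected on day 5 after infection with a guide RNA against KLF5, RUVBL1, RUVBL2, CDK1, RPA3 (labelled sgRpa3), SERPINB5 or CHD4, or with the control guide sgRosa. KLF5 is a transcription factor of epithelial cells, and RUVBL1 and RUVBL2 are ATPases that work as one complex in chromatin remodelling and in the assembly of other complexes. The authors list more than 1 guide against KLF5, RUVBL1, RUVBL2, SERPINB5 and CHD4 and for sgRosa. A single guide is listed against CDK1 and against RPA3. The labels do not say which library carries which guide. CB-6644, an allosteric inhibitor of the RUVBL1/2 ATPase, was given for 24 h, with its solvent DMSO as the control. AsPC-1 and T3M-4 received it after transduction with an empty vector or with a resistant variant, RUVBL1 A62T or RUVBL2 dF109, and every vector had 3 CB-6644 libraries and 1 DMSO library. T84, A375, H1048 and RH30 received it with no vector named in the labels, in 4 libraries against 4. By condition, 34 libraries were sgRosa, 33 sgKLF5, 19 sgRUVBL1, 13 sgRUVBL2, 8 sgCDK1, 12 sgRpa3, 4 sgSERPINB5, 4 sgCHD4, 22 DMSO and 34 CB-6644. All are bulk cultures of pooled cells, so a change in the cells that make a transcript and a change in the RNA per cell cannot be told apart. The labels do not state whether replicates were separate cultures, and the p-values measure the spread between these libraries, which may be technical.

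ERK, the last kinase of the RAS-RAF-MEK-ERK cascade, switches on the genes that restrain it. The DUSP proteins remove activating phosphates from MAP kinases, DUSP5 in the nucleus and DUSP6 in the cytoplasm with ERK as their substrate. The SPRY and SPRED proteins act upstream, at the step from receptor to RAS and RAF, and ETV4 and ETV5 are ETS transcription factors that carry the ERK signal to further genes. Transcripts of this group are widely read as a gauge of ERK output in tumours driven by RAS or RAF, of which pancreatic adenocarcinoma is a well-known case.

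The genes lie on separate chromosomes except DUSP6 and PHLDA1, which are both on chromosome 12. In RefSeq (GRCh38.p14), DUSP5 spans chr10:110497907-110511533, ETV4 chr17:43527846-43546340 and ETV5 chr3:186046314-186109089. For the promoter window from 250 bases before to 50 bases after a start site, 6 of the 10 genes had an entry in the sequence table, which were DUSP6, PHLDA1, SPRED1, SPRED2, SPRY2 and SPRY4, with 9 start sites. The first listed windows of 3 genes are printed. After KLF5 knockout the calls of SPRY4 and SPRY2 went in opposite directions and those of DUSP6 in either direction. Capitals mark the letters CCNCNCCC on the printed strand, the GC-rich box bound by KLF and SP factors.
SPRY4, chr5:142324198-142324497, minus strand: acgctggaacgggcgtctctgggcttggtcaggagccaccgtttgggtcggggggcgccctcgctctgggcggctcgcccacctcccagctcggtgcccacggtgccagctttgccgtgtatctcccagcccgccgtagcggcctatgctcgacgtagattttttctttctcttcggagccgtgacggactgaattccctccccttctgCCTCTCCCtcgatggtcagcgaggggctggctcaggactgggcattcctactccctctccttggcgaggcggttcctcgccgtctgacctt
SPRY2, chr13:80341077-80341376, minus strand: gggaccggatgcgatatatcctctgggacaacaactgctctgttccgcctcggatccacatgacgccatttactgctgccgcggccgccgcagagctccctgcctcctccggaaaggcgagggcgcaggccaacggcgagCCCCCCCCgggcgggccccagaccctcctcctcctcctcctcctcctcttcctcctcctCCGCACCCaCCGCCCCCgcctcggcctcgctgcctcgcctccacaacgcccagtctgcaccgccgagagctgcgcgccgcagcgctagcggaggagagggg
DUSP6, chr12:89352452-89352751, minus strand: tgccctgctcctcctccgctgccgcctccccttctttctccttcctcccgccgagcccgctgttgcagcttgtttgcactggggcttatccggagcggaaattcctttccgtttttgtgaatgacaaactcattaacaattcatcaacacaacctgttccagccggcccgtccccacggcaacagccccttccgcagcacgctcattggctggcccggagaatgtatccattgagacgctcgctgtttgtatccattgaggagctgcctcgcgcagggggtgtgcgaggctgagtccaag

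The windows were searched on both strands for 4 motifs, and no motif contains another. The box CCNCNCCC was found for PHLDA1, SPRED2, SPRY2 and SPRY4, that is 4 of the 6 genes, and in 56.2% of all 35116 promoter windows. The printed SPRY2 window held it at 3 positions, all on the printed strand, the SPRY4 window at 1 and the DUSP6 window at none. The ETS core CCGGAAG was found for none of the 6, against 10.3% of all windows, the AP-1 site TGANTCA for SPRED2, against 7.71%, and the CRE TGACGTCA for none, against 1.85%. These are matches of letters within a short window and say nothing of binding.

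Values are TPM, the abundance of a gene's transcripts per length, scaled so that each library adds up to 1e+06. Depth is unknown, since TPM keeps no read counts, and between 11292 and 14024 genes per library reached 1 TPM. Guides against RUVBL1 and RUVBL2 lowered their own transcripts in all libraries below all controls, with log2 changes between -1.87 and -1.14. KLF5 mRNA changed by -0.41 to 0.78 on the log2 scale after its own knockout and is no check of it. In CFPAC-1 the 2 libraries labelled sgCDK1 kept CDK1 at 200.4 TPM against 215 TPM in the controls, while the 2 libraries labelled sgRpa3 had 86.5 TPM, so these labels are given as they stand. Markers of epithelium reached 10 TPM for 5 of 5 genes in the pancreatic lines and T84, and for none in RH30. Of the markers of each other tissue, T84 had 4 of 4 colorectal genes at 10 TPM, RH30 3 of 4, A375 2 of 4 and H1048, labelled as a tuft-like line, 2 of 4. Some libraries stood apart from the others of their group, above all T3M-4 sgKLF5 replicate 2 of experiment 1 and SUIT-2 sgRosa replicate 1, in which transcripts over 6000 bases were lower by a median of 1.28 and 0.90 on the log2 scale and 9 and 10 of the 10 genes were lower. Ribosomal protein genes held 286706 TPM in the former against 193760 in its group, and 345421 against 274039 in the latter. Their part in the results was not tested, and the affected comparisons are given with and without them.

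The level of the genes in control cells ranged widely over the 9 lines for some members and little for others, and many neighbouring lines overlapped. DUSP5 covered the widest range, from a median of 105 TPM in BxPC-3 to 0.903 TPM in AsPC-1, a ratio of 116. In BxPC-3 the controls lay above those of every other line, T3M-4, SUIT-2 and T84 followed with overlapping ranges, and AsPC-1 lay below all. DUSP4, at chr8:29333064-29350684 in the same annotation, was highest in T3M-4, with a median of 150.3 TPM and a range of 49.1 to 202, and lowest in RH30, with 3.70 TPM. The ranges of T3M-4, A375, BxPC-3, CFPAC-1 and AsPC-1 overlapped from each line to the next.

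DUSP6 ran from 155 TPM in AsPC-1 to 4.86 TPM in H1048, and the 7 highest lines overlapped from neighbour to neighbour. SPRY4 was also highest in AsPC-1, at 54.1 TPM, and lowest in RH30, at 2.31 TPM. SPRY2 ran otherwise, with 148 TPM in A375, where it exceeded every other line, and 16.6 TPM in T3M-4. The membrane-bound inhibitors SPRED1 and SPRED2 varied least, with ratios of the highest to the lowest line of 3.19 and 3.80.

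ETV4 and ETV5 were both highest in A375, at 154 and 49.4 TPM, the former in RH30 (5.67 TPM) and the latter in T84 (3.15 TPM) at its lowest. PHLDA1, which encodes a pleckstrin-homology-like protein induced by growth factors, was highest in T84 (215 TPM) and lowest in H1048 (14.7 TPM). Over the medians of the 9 lines, DUSP5 and PHLDA1 had the highest rank correlation of any pair of the 10 genes, with a Spearman rho of 0.78, and DUSP6 and SPRY4 followed with 0.67. DUSP5 and SPRED2 ran opposite, with a rho of -0.85. These are descriptions over 9 points, and since tables were normalised separately, no line was tested against another.

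**Figure D1:**
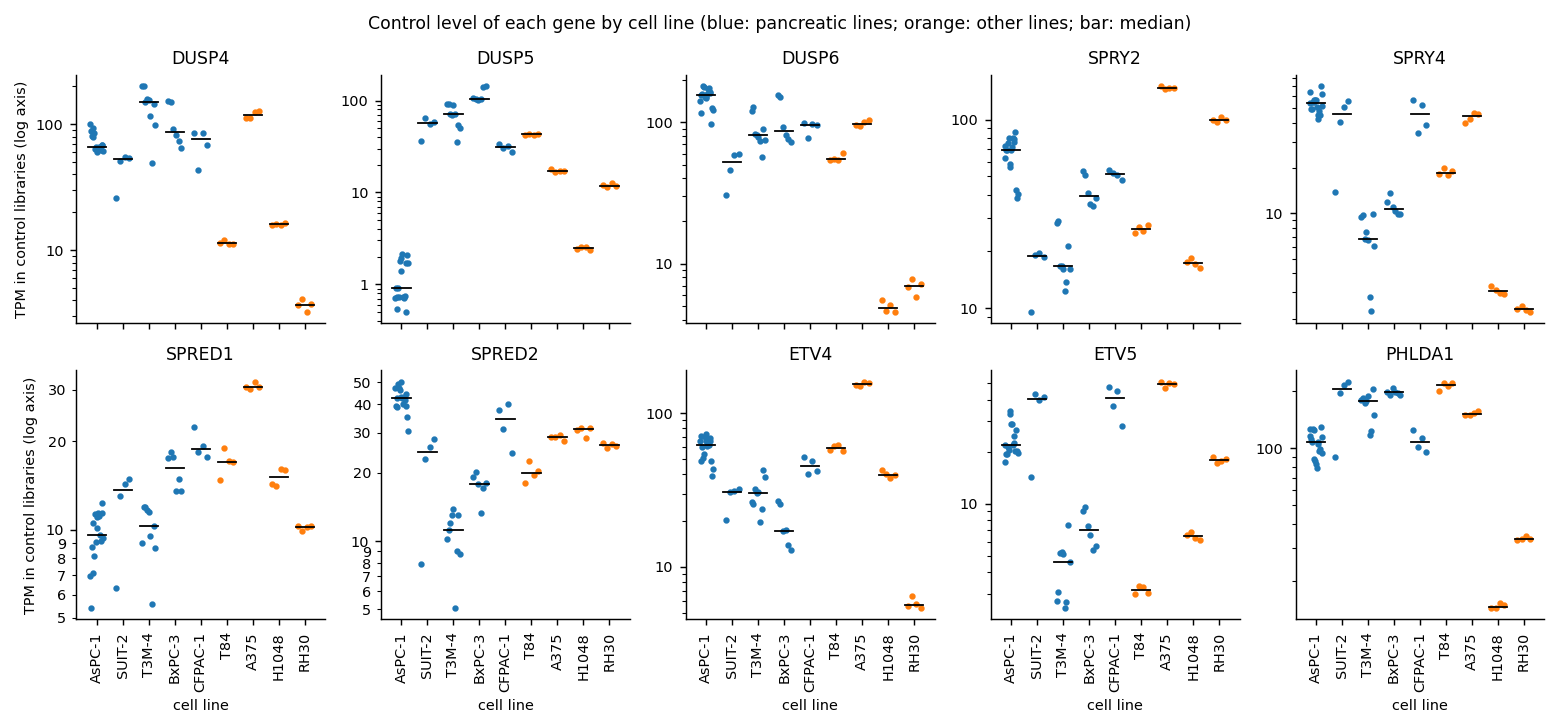
Level of each of the 10 genes in control libraries (sgRosa or DMSO) of the 9 lines, in TPM on a log axis, with 1 point per library and a bar at the median. DUSP5 spans from 105 TPM in BxPC-3 to 0.903 TPM in AsPC-1, while SPRED1 and SPRED2 stay within a ratio of 3.80 between the highest and lowest line.

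Each knockout or CB-6644 group was compared with sgRosa or DMSO of the same line and experiment. This gave 390 pairs of gene and comparison in 39 comparisons, of which 387 were tested. DUSP5 fell below the minimum mean of 1 TPM in 3 comparisons, all in AsPC-1. A pair was called at an adjusted p under 0.05 in limma after Benjamini-Hochberg adjustment over all genes, and 158 pairs were called, 72 lower and 86 higher. All changes are differences of log2(TPM + 1), which understate the change of genes at low TPM, and ± gives the standard error. Comparisons of 1 experiment share their control libraries. Where the median change of all genes was over 0.1 in size, TPM values had a general shift in that comparison, and the number of calls after scaling each library by the median of its ratios to the other libraries is given as well.

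**Figure D2:**
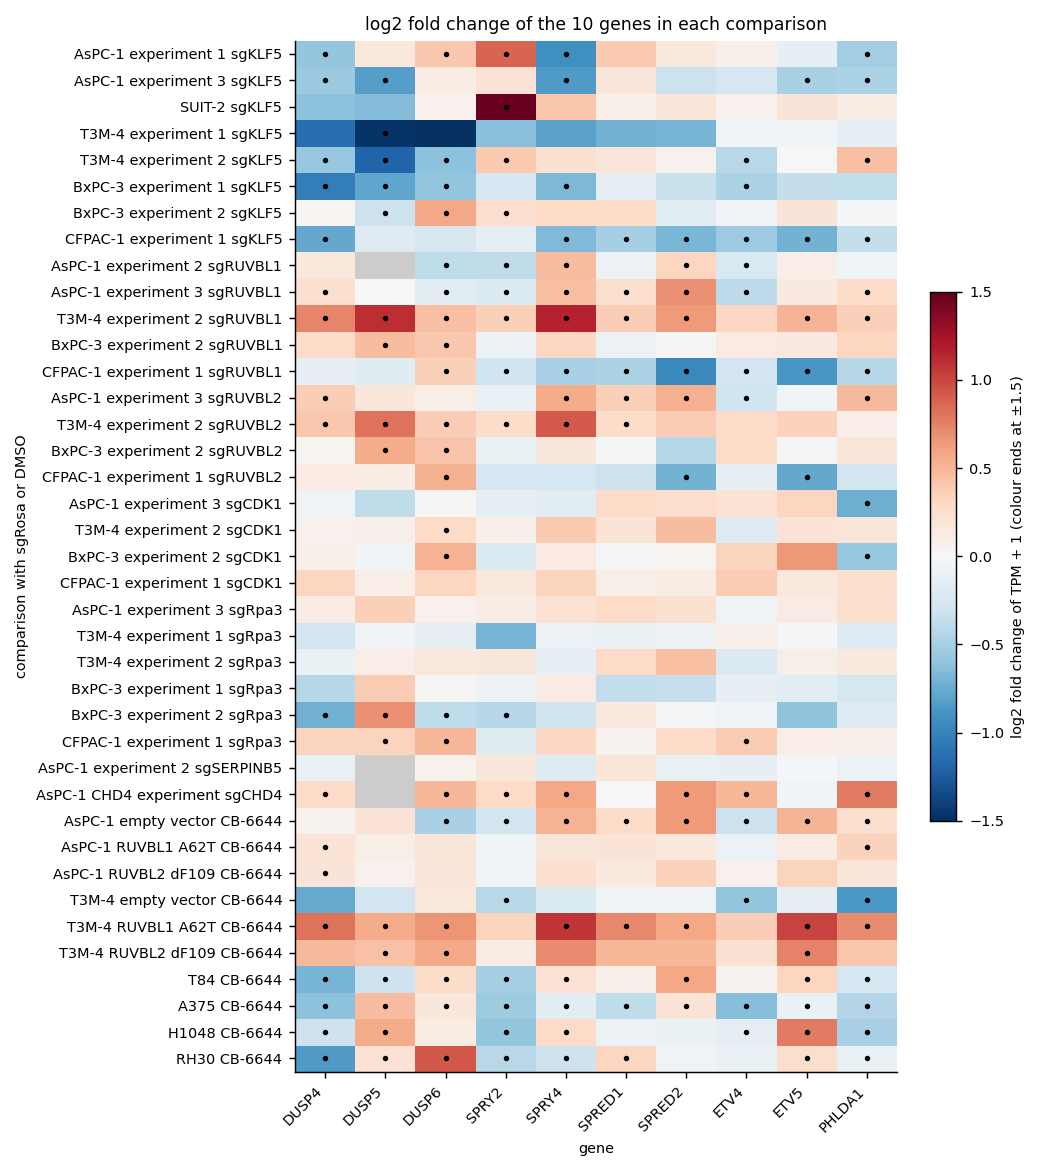
Change of each of the 10 genes, in log2(TPM + 1), in each comparison of a knockout or CB-6644 group with its own control, with called pairs marked. Of 387 tested pairs, 72 were called lower and 86 higher, and after KLF5 knockout only DUSP6 and PHLDA1 were called in both directions.

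After KLF5 knockout the nuclear ERK phosphatase gene DUSP5 and its relative DUSP4 fell in most lines. SPRY4 fell in AsPC-1, CFPAC-1 and experiment 1 of BxPC-3, and SPRY2 rose in every comparison where it was called. DUSP4 was called lower in 5 of 8 comparisons and higher in none, with a median change of -0.60. DUSP5 was called lower in 5 of 8 and higher in none, with a median of -0.72. SPRY2 was called higher in 4 of 8 and lower in none, while DUSP6 was called lower in 2 and higher in 2.

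The number called per comparison has to be read against the share of all genes called. In AsPC-1, experiment 1, 3 of the 10 genes fell and 2 rose, where 8.81% of all genes fell and 17.1% rose, and in experiment 3 it was 5 and none, against 12.3% and 15.4%. In SUIT-2 1 gene rose and none fell, against 2.94% and 1%. In T3M-4, 1 gene fell and none rose in experiment 1, against 2.46% and 3.26%, and 4 fell and 2 rose in experiment 2, against 11.2% and 23.4%. In BxPC-3, 5 fell and none rose in experiment 1, against 8.1% and 8.09%, and 1 fell and 2 rose in experiment 2, against 13.6% and 21%. In CFPAC-1, 7 fell and none rose, against 13% and 3.26%. The median over the 10 genes was -0.52 in CFPAC-1, -0.43 in BxPC-3 experiment 1 and -0.40 in AsPC-1 experiment 3, where the medians over all genes were -0.11, -0.02 and 0.02.

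DUSP4 had 63.5, 65.7, 64.4 and 60.6 TPM in the AsPC-1 sgRosa libraries of experiment 3, and 38.6, 46.6, 45.3 and 40.9 TPM after KLF5 knockout. All 4 knockout libraries were below all controls, a change of -0.56 ± 0.08 with a limma adjusted p of 3.4e-05. In BxPC-3 experiment 1 the controls had 154 and 151 TPM and the knockout libraries 82.9, 78.4, 65.2 and 70.8 TPM, again without overlap, a change of -1.03 ± 0.10 (adjusted p = 8.4e-05). In BxPC-3 experiment 2, however, the control libraries themselves were at 92.3, 82.5, 74.2 and 64.3 TPM, the knockout libraries at 75.0, 85.5, 79.8 and 76.4 TPM, and the change was 0.03. After knockout the level was thus similar in both experiments and the controls differed, and the 2 experiments were not tested against each other.

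DUSP5 showed its largest falls in T3M-4, a line in which its control level was next to that of BxPC-3. In experiment 2 the controls had 72.0, 69.0, 89.0 and 71.3 TPM and the KLF5 knockout libraries 33.5, 32.8, 32.3 and 30.0 TPM. The groups were far apart, a change of -1.20 ± 0.09 (adjusted p = 1.3e-08). In experiment 1 it fell by 1.47 ± 0.27 on the log2 scale (adjusted p = 0.022), from 91.4 and 91.3 TPM to 36.8, 21.2, 36.8 and 38.5 TPM. That call was lost without knockout replicate 1 or without either control library. In AsPC-1 the fall in experiment 3 was -0.83, but at a level of 1.41 to 2.16 TPM in the controls and 0.398 to 0.829 TPM in the knockout. In AsPC-1 experiment 1, the 6 knockout libraries had a lowest, median and highest value of 0.276, 0.498 and 7.63 TPM and gave no call. Replicate 6 alone held the value of 7.63 TPM. DUSP5 also fell in both BxPC-3 experiments, in experiment 1 from 106 and 103 TPM to 63.7, 58.6, 58.9 and 60.5 TPM.

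The library that stood apart in each of SUIT-2 and T3M-4 experiment 1 decided which of these genes were called there. SUIT-2 DUSP4 had 26.0, 51.6, 54.5 and 54.5 TPM in the controls, of which the first is the outlying library, and 30.4, 27.9, 27.1 and 30.2 TPM after KLF5 knockout. Without that library DUSP4 changed by -0.87 and DUSP5 by -0.83, and both were called. Without T3M-4 sgKLF5 replicate 2, DUSP4 (-0.79), DUSP5 (-1.27) and DUSP6 (-1.11) were called lower in place of DUSP5 alone. T3M-4 DUSP6 of experiment 1 had 120.3 and 128 TPM in the controls and 53.4, 15.1, 57.8 and 59.6 TPM in the knockout, and in experiment 2 it fell by 0.62 ± 0.07 on the log2 scale (adjusted p = 2.6e-06).

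DUSP6, the cytoplasmic ERK phosphatase gene, did not move alike across lines. In BxPC-3 it fell by 0.59 on the log2 scale in experiment 1, from controls at 154 and 151 TPM to 109, 111, 87.6 and 98.3 TPM. In experiment 2 of the same line it rose by 0.58 ± 0.10 (adjusted p = 0.00022), from 92.4, 81.6, 75.9 and 72.7 TPM to 123, 128, 114 and 117 TPM. The knockout libraries of both experiments were thus nearer to each other than the control libraries were. It also rose in AsPC-1 experiment 1 (0.41 ± 0.11, adjusted p = 0.020), while AsPC-1 experiment 3 gave 162, 162, 168 and 164 TPM against 149.8, 149, 151 and 158 TPM and no call.

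SPRY4 fell in both AsPC-1 experiments, by 0.91 ± 0.12 (adjusted p = 0.00034) and 0.84 ± 0.14 (adjusted p = 0.00015) on the log2 scale. Its knockout libraries in experiment 3 had 23.2, 35.2, 38.1 and 26.4 TPM against 55.3, 56.8, 56.6 and 51.2 TPM, and replicates 1 and 4 were lower than replicates 2 and 3 for SPRY4, SPRED2, ETV4, ETV5 and PHLDA1 alike. SPRY2 went the other way, most of all in SUIT-2, with 61.7, 49.9, 52.0 and 55.1 TPM after KLF5 knockout and 9.53, 19.1, 19.7 and 18.6 TPM in the controls. The change was 1.70 ± 0.23 (adjusted p = 0.0045), and 1.46 and still called without the outlying control. SPRY2 also rose in AsPC-1 experiment 1 (0.87 ± 0.08, adjusted p = 3.2e-05), T3M-4 experiment 2 (0.39) and BxPC-3 experiment 2 (0.25), and stayed uncalled in AsPC-1 experiment 3, where its libraries overlapped the controls.

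SPRED1 and SPRED2, ETV4 and ETV5 fell together in CFPAC-1, by 0.50, 0.69, 0.55 and 0.71 on the log2 scale. CFPAC-1 ETV5 had 24.3, 21.7 and 23.9 TPM after KLF5 knockout and 47.5, 36.8, 45.1 and 28.3 TPM in the controls, so all knockout libraries were below all controls although the controls themselves spread. Among the other lines ETV4 fell in T3M-4 experiment 2 (-0.42) and BxPC-3 experiment 1 (-0.48), ETV5 fell in AsPC-1 experiment 3 (-0.48), and neither SPRED gene was called. PHLDA1 fell in AsPC-1 by 0.52 and 0.48 and in CFPAC-1 by 0.36, and rose in T3M-4 experiment 2, by 0.45 ± 0.12 (adjusted p = 0.0060).

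The general shift was over 0.1 in SUIT-2 (0.18), T3M-4 (-0.22 and 0.10) and CFPAC-1 (-0.11). With median-of-ratios scaling, 2 genes were called lower and 1 higher in SUIT-2, 3 and none in T3M-4 experiment 1, 4 and 2 in T3M-4 experiment 2, and 7 and none in CFPAC-1. Over all genes that scaling gave 1620 lower and 1803 higher calls in AsPC-1 experiment 1 in place of 1045 and 2030, 343 and 495 in SUIT-2 in place of 126 and 370, 2637 and 2334 in T3M-4 experiment 2 in place of 1490 and 3096, 2263 and 2288 in BxPC-3 experiment 2 in place of 1685 and 2599, and 904 and 1029 in CFPAC-1 in place of 1651 and 416. For T3M-4 experiment 1 the scaled calls over all genes are not given here, so its count with scaling stands without that share. Without AsPC-1 sgRosa replicate 1 of experiment 1, 3 genes were past the threshold there in place of 5. In BxPC-3 the count fell from 5 to 3 in experiment 1 without knockout replicate 2 or 4 or either control, and from 3 to 1 in experiment 2 without knockout replicate 1 or 2 or control replicate 3 or 4.

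**Figure D3:**
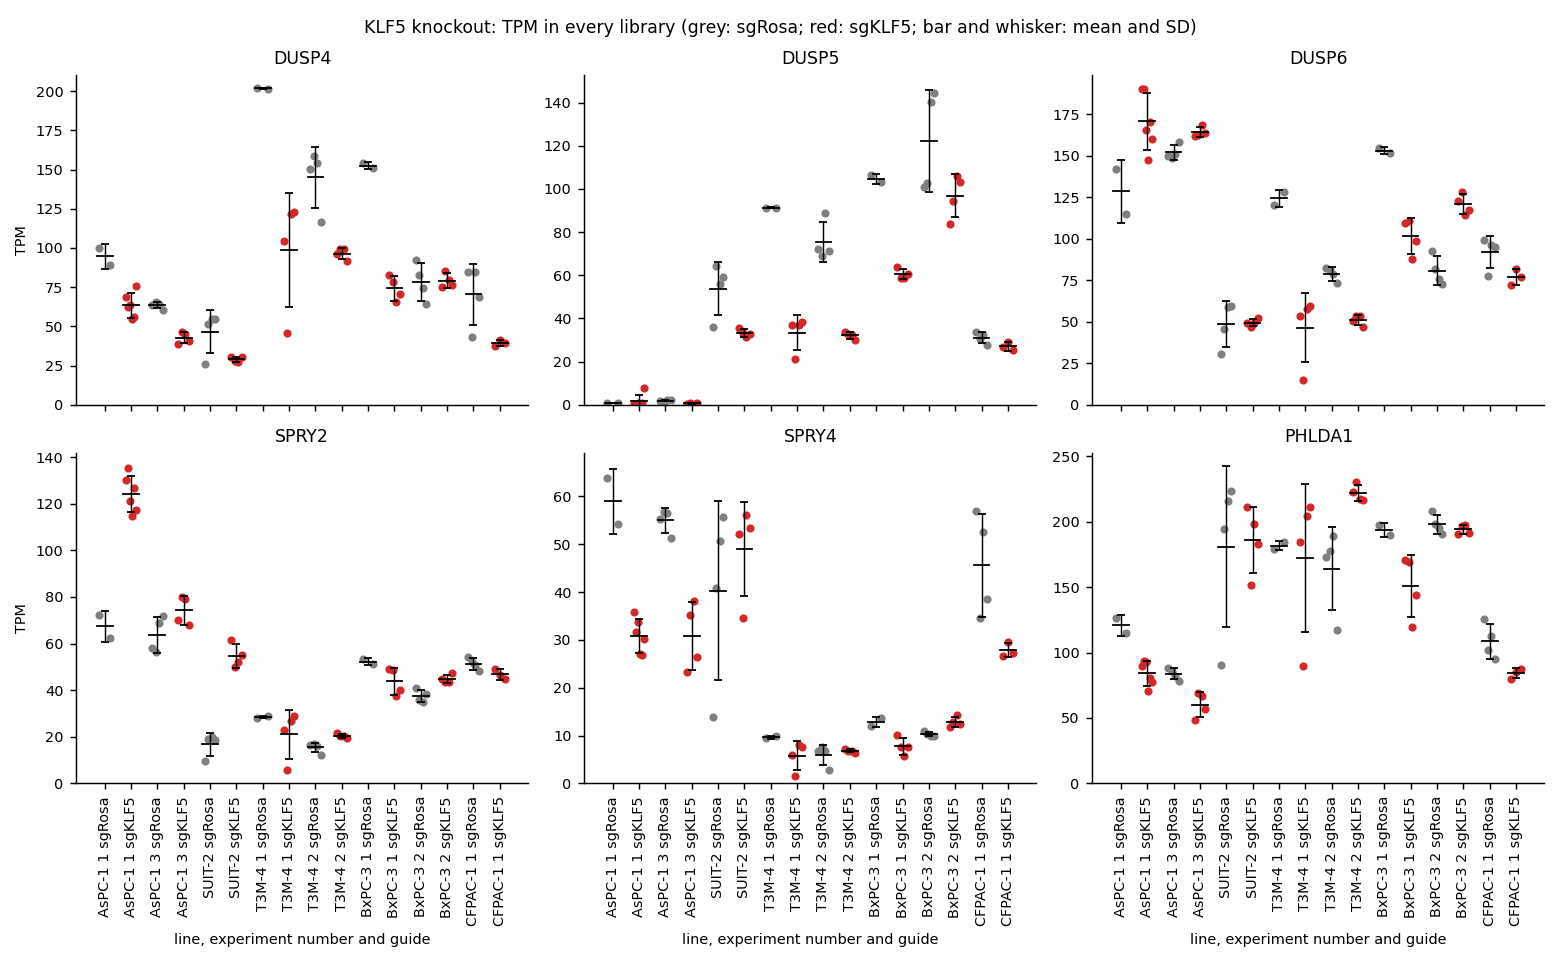
TPM of DUSP4, DUSP5, DUSP6, SPRY2, SPRY4 and PHLDA1 in each sgRosa (grey) and sgKLF5 (red) library of the 8 KLF5 comparisons, with 1 point per library, a bar at the mean and whiskers for the SD. DUSP5 of T3M-4 experiment 2 lies at 69.0 to 89.0 TPM in the controls and at 30.0 to 33.5 TPM after knockout, and BxPC-3 DUSP6 moves down in experiment 1 and up in experiment 2.

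After knockout of RUVBL1, the genes rose in T3M-4 and for the most part fell in CFPAC-1, and in AsPC-1 they split by gene. In T3M-4 9 of 10 rose and none fell, where 45.9% of all genes rose and 14.6% fell. In CFPAC-1 7 fell and 1 rose, against 37.3% and 6.54%. In AsPC-1 3 of the 9 tested fell and 2 rose in experiment 2, against 25.8% and 30%, and 3 fell and 5 rose in experiment 3, against 15.2% and 36.6%. In BxPC-3 none fell and 2 rose, against 7.67% and 8.29%.

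RUVBL2 knockout gave none lower and 6 higher in T3M-4 (15.2% and 39.3% of all genes), 1 lower and 5 higher in AsPC-1 (11% and 32.2%), none lower and 2 higher in BxPC-3 (5.48% and 4.27%), and 2 lower and 1 higher in CFPAC-1 (9.26% and 2.83%). The comparisons with RUVBL1 and RUVBL2 knockout share their controls, and their values are set side by side.

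In T3M-4 DUSP5 had 164, 174 and 152 TPM after RUVBL1 knockout and 116, 144, 149 and 123 TPM after RUVBL2 knockout, against controls of 69.0 to 89.0 TPM. Both groups were above all controls, with changes of 1.11 ± 0.10 (adjusted p = 1e-07) and 0.81 ± 0.09 (adjusted p = 1.3e-06). KLF5 knockout in the same experiment had lowered it, so DUSP5 differed by the knocked-out gene in 1 line. DUSP4 had 231, 252 and 237 TPM after RUVBL1 knockout against controls at 150.3, 159, 155 and 116 TPM, a change of 0.73 ± 0.10 (adjusted p = 9.7e-06), and rose by 0.40 after RUVBL2 knockout. SPRY4 rose by 1.16 ± 0.21 (adjusted p = 0.00015) and 0.92 ± 0.19 (adjusted p = 0.00067), from 6.78, 7.52, 6.70 and 2.77 TPM to 13.6, 15.3 and 12.5 TPM after RUVBL1 knockout.

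T3M-4 sgRosa replicate 4, which held that lowest SPRY4 value, had 9 of the 10 genes below the other controls, all but DUSP5. Without it DUSP4 (0.63), DUSP5 (1.09), DUSP6 (0.42), SPRY2 (0.26), SPRY4 (0.89) and SPRED1 (0.30) were called after RUVBL1 knockout. Without RUVBL1 replicate 2, 4 genes were called. The median change of all genes was 0.25 after RUVBL1 and 0.19 after RUVBL2 knockout, that of transcripts over 6000 bases 0.39 and 0.21, and ribosomal protein genes held 144308 and 153729 TPM against 195910 TPM in the controls. With median-of-ratios scaling 4 genes rose in each comparison and none fell, and over all genes the calls were 3726 lower and 3801 higher after RUVBL1 knockout, in place of 1933 and 6080, and 3537 and 3540 after RUVBL2 knockout, in place of 2014 and 5208. DUSP4, DUSP5, DUSP6 and SPRY4 were called under all alternatives for both knockouts. The part of the general shift in the remaining calls was not tested.

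In AsPC-1 the inhibitors SPRY4 and SPRED2 rose and ETV4 fell in both RUVBL1 experiments. SPRED2 had 89.9, 89.2, 67.1 and 54.9 TPM after RUVBL1 knockout in experiment 3, all above controls of 46.5, 50.3, 43.2 and 42.5 TPM, a change of 0.68 ± 0.17 (adjusted p = 0.0031). In experiment 2 it changed by 0.32 (adjusted p = 0.024) and SPRY4 by 0.46 (adjusted p = 0.00090), the latter from 49.9, 49.4, 54.9 and 56.5 TPM to 65.8, 76.5, 74.9 and 74.3 TPM. DUSP6 and SPRY2 fell in both experiments, DUSP6 from 155, 158, 181 and 177 TPM to 128, 129.6, 128 and 129 TPM in experiment 2 (-0.38 ± 0.06, adjusted p = 4.9e-05) and by 0.16 on the log2 scale in experiment 3.

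After RUVBL2 knockout in AsPC-1, DUSP4 (0.37), SPRY4 (0.55), SPRED1 (0.36), SPRED2 (0.54) and PHLDA1 (0.49) rose and ETV4 fell (-0.30), and DUSP6, at 165, 152, 159 and 169 TPM, was not called. In experiment 3 the RUVBL1 count of 8 fell to 4, 4 and 3 without control replicate 4, RUVBL1 replicate 2 and RUVBL1 replicate 1, and in experiment 2 the count of 5 fell to 3 without RUVBL1 replicate 2 or 3. With scaling, 3 fell and 2 rose after RUVBL1 knockout and 2 fell and 5 rose after RUVBL2 knockout in experiment 3, and the calls over all genes were 3083 lower and 3034 higher in place of 1862 and 4477, and 2554 and 2441 in place of 1345 and 3936. The general shifts there were 0.16 and 0.13.

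In BxPC-3 DUSP5 rose by 0.47 and 0.56 and DUSP6 by 0.40 and 0.42 after RUVBL1 and RUVBL2 knockout. KLF5 knockout in the same experiment had lowered DUSP5 (-0.32). That call and the RUVBL2 call of DUSP5 were lost with a fit of only the groups compared. DUSP6 had 130.4, 116, 92.8 and 91.7 TPM after RUVBL1 knockout and 116, 109 and 101 TPM after RUVBL2 knockout, against 92.4, 81.6, 75.9 and 72.7 TPM. RUVBL2 replicate 3 had all 10 genes below its group, and without it DUSP5, DUSP6, SPRY4 (0.46), ETV4 (0.50) and PHLDA1 (0.42) rose. Without replicate 1 the count was 1.

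In CFPAC-1 DUSP6 rose, alone among the 10 genes, by 0.35 ± 0.08 (adjusted p = 0.0020) after RUVBL1 knockout and by 0.53 ± 0.10 (adjusted p = 0.0046) after RUVBL2 knockout. It had 113, 129.8, 112 and 115 TPM and 138 and 127 TPM in the knockouts and 99, 77.4, 96.4 and 94.7 TPM in the controls. SPRED2 and ETV5 fell after both, SPRED2 by 0.96 ± 0.12 (adjusted p = 6.4e-05) and 0.71 ± 0.15 (adjusted p = 0.0077), and ETV5 by 0.88 and 0.76 on the log2 scale.

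After RUVBL1 knockout transcripts over 6000 bases had a median change of -0.40 in CFPAC-1, and ribosomal protein genes held 192532 TPM against 158062 TPM. The general shift was -0.20, and with scaling 4 genes fell and 1 rose, with 2219 lower and 2362 higher calls over all genes in place of 4750 and 834. After RUVBL2 knockout scaling gave 2 lower and 1 higher, with 763 and 647 calls over all genes in place of 1181 and 361. The RUVBL2 count rested on single libraries, with none called without RUVBL2 replicate 1 and 5 lower and 1 higher without control replicate 4.

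**Figure D4:**
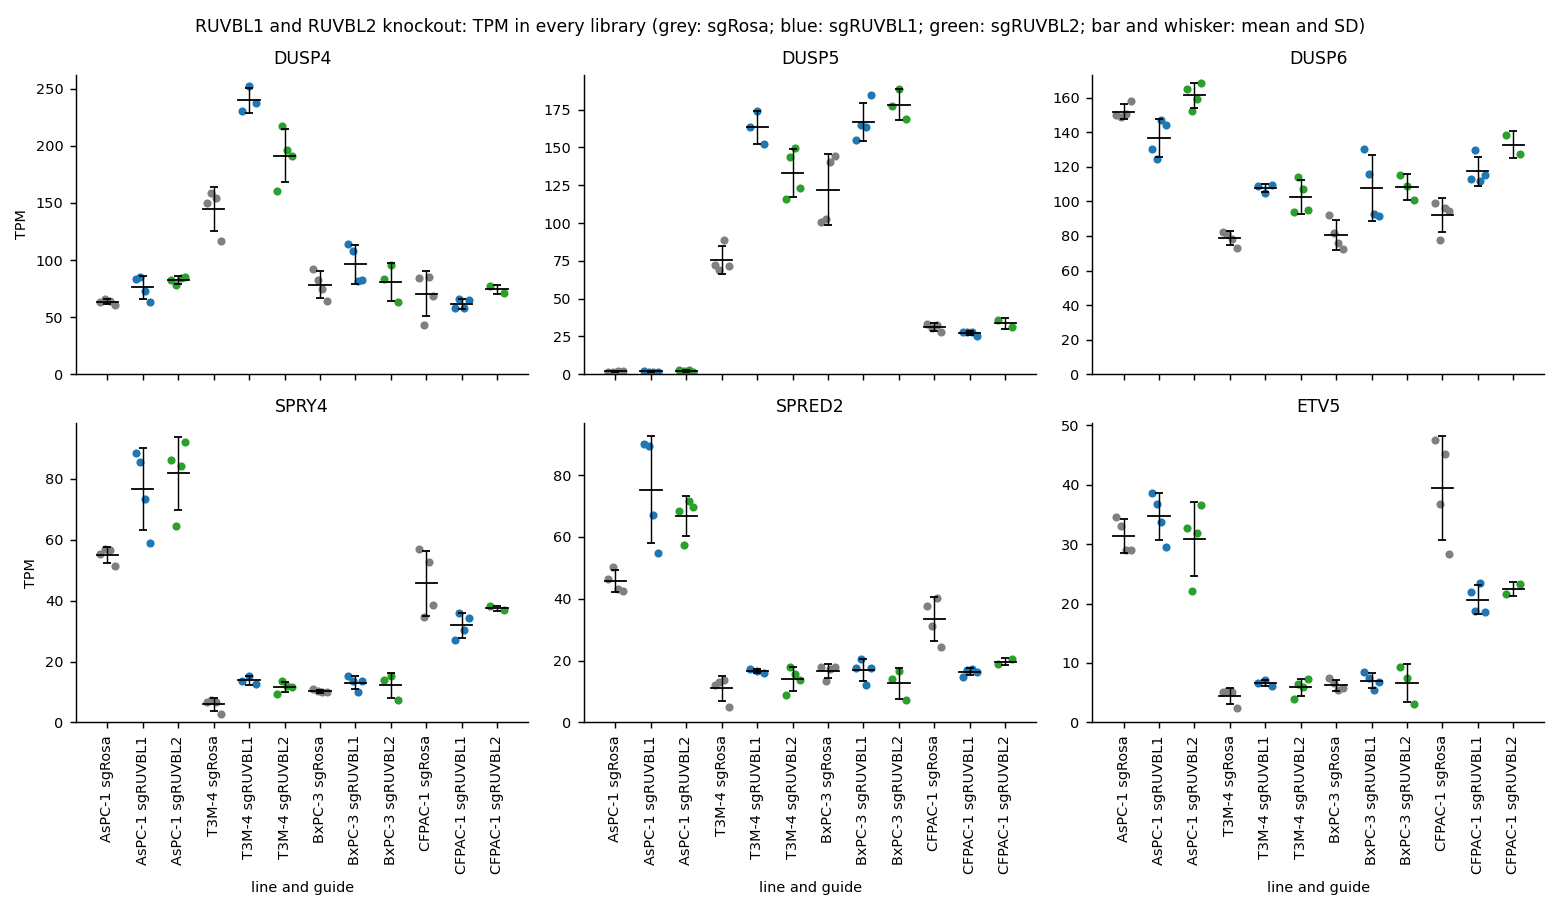
TPM of DUSP4, DUSP5, DUSP6, SPRY4, SPRED2 and ETV5 in each sgRosa (grey), sgRUVBL1 (blue) and sgRUVBL2 (green) library of AsPC-1 experiment 3, T3M-4 and BxPC-3 experiment 2 and CFPAC-1, with 1 point per library, a bar at the mean and whiskers for the SD. DUSP5 in T3M-4 lies at 69.0 to 89.0 TPM in the controls and at 152 to 174 TPM after RUVBL1 knockout, while ETV5 in CFPAC-1 lies lower after both knockouts.

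Knockout of CDK1 or RPA3, genes that dividing cells need for mitosis and for DNA replication, moved few of the 10 genes. In AsPC-1 1 fell after CDK1 knockout, where 16.7% of all genes were called in either direction, and none after RPA3 knockout (0.654%), with 2 at an unadjusted p under 0.05. In T3M-4 none was called after RPA3 knockout in either experiment (0% and 24.6% of all genes, with none and 1 of the 10 at an unadjusted p under 0.05), and 1 rose after CDK1 knockout (16.8%). In BxPC-3 none was called after RPA3 knockout in experiment 1 (0.307%, 2 unadjusted), and in experiment 2 1 fell and 1 rose after CDK1 knockout (5.82%) and 3 fell and 1 rose after RPA3 knockout (20.8%). The libraries labelled sgCDK1 in CFPAC-1 gave no call (0%, 3 unadjusted), and those labelled sgRpa3 gave 3 higher (11.6%). In the 2 comparisons at 0%, limma called no gene, and 189 genes in T3M-4 experiment 1 and 1477 in CFPAC-1 had an unadjusted p under 0.05.

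PHLDA1 fell after CDK1 knockout in AsPC-1, at 49.2 and 50.8 TPM against 88.0, 85.8, 82.4 and 78.6 TPM (-0.73 ± 0.10, adjusted p = 6.1e-05), and in BxPC-3 (-0.56, adjusted p = 0.044). DUSP6 rose after CDK1 knockout in BxPC-3 (0.52) and T3M-4 (0.28). After RPA3 knockout in BxPC-3 experiment 2, DUSP5 rose to 196 and 193 TPM from 101, 103, 140.3 and 145 TPM (0.69 ± 0.13, adjusted p = 0.0015), while DUSP4 (-0.72), DUSP6 (-0.39) and SPRY2 (-0.43) fell. In the CFPAC-1 libraries labelled sgRpa3, DUSP5 (0.33), DUSP6 (0.49) and ETV4 (0.38) were higher than in the controls.

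All these groups have 2 libraries, and leaving out 1 library changed several counts. In BxPC-3 experiment 2 the RPA3 count fell from 4 to 1 without either knockout library, and the CDK1 count of 2 to none without either knockout library and to 1 without any 1 control. The CDK1 call in T3M-4, that of DUSP6, was lost without either knockout library. Without control replicate 4 DUSP6 was not called either (0.25) and ETV4 was called lower in its place (-0.36). Also without control replicate 4, 2 genes were called lower after RPA3 knockout in T3M-4 experiment 2. The count of 3 for the libraries labelled sgRpa3 in CFPAC-1 fell to none without either of them and to 1 without control replicate 2 or 4. With scaling, the T3M-4 CDK1 call was lost and 2 genes were lower after RPA3 knockout in experiment 2, and 1 rose in the CFPAC-1 libraries labelled sgRpa3. The calls over all genes were then 1176 lower and 1061 higher in place of 510 and 1717, 1909 and 1644 in place of 821 and 2441, and 834 and 639 in place of 432 and 1042. The general shifts were 0.15, 0.15 and 0.08, and -0.13 in BxPC-3 experiment 1.

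Knockout of SERPINB5, which encodes the serpin maspin, gave no call by limma among 9 tested genes in AsPC-1, with 1 at an unadjusted p under 0.05 and 0.0343% of all genes called in either direction. Over all genes 2 were lower and 2 higher, and 1 and none with scaling.

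Knockout of CHD4, the ATPase of the NuRD remodelling complex, raised 7 of 9 tested genes in AsPC-1 and lowered none, where 23.3% of all genes rose and 26.7% fell. The median of the 9 genes was 0.49 and that of all genes -0.03. PHLDA1 had 182, 161, 188 and 175 TPM against 108, 105, 96.5 and 99.6 TPM in the controls, a change of 0.78 ± 0.06 (adjusted p = 5.8e-07). SPRED2 (0.64), SPRY4 (0.58), DUSP6 (0.50), ETV4 (0.49), DUSP4 (0.30) and SPRY2 (0.29) rose as well. DUSP6 had 240.1, 218, 247 and 240.5 TPM against 170.4, 175, 159.9 and 162 TPM. SPRED1 and ETV5 overlapped their controls, at 10.3, 7.31, 13.3 and 11.3 TPM and at 22.3, 18.2, 23.1 and 22.6 TPM. CHD4 mRNA itself was 0.28 higher on the log2 scale in these libraries. All 7 calls held without any 1 library and with scaling.

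For CB-6644 in AsPC-1 and T3M-4, the 3 DMSO libraries of a line, 1 per vector, served as 1 control group. With the empty vector in AsPC-1, 3 genes fell and 5 rose, where 17.2% of all genes fell and 47.2% rose. DUSP6 had 79.4, 81.2 and 83.1 TPM in CB-6644, below 97.4, 126 and 121 TPM in DMSO, a change of -0.49 ± 0.08 (adjusted p = 0.00015). SPRY2 (-0.28) and ETV4 (-0.32) fell and SPRY4 (0.52), SPRED1 (0.28), SPRED2 (0.64), ETV5 (0.51) and PHLDA1 (0.25) rose. In AsPC-1 cells with a resistant variant the count depended on the control. Against the merged DMSO group 2 rose and none fell with RUVBL1 A62T, where 10.8% and 1.98% of all genes did, and 1 rose and none fell with RUVBL2 dF109, where 29.3% and 4.1% did. Against the single DMSO library of the same vector, 3 fell and 1 rose with the empty vector and none was called with RUVBL1 A62T. With RUVBL2 dF109 6 rose against its own DMSO library, which were DUSP4 (0.30), SPRY4 (0.48), SPRED1 (0.36), SPRED2 (0.59), ETV5 (0.48) and PHLDA1 (0.43).

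Set against the variant cells in CB-6644, AsPC-1 empty-vector cells in CB-6644 had 3 genes lower and 3 higher than with RUVBL1 A62T, where 18.9% and 32.3% of all genes were lower and higher, and 4 lower and 1 higher than with RUVBL2 dF109, where it was 20.9% and 26.3%. DUSP6 was the clearest, with 127, 129 and 133 TPM with A62T and 129, 129 and 131 TPM with dF109, all above the empty-vector cells. Its differences were -0.67 ± 0.08 (adjusted p = 2.4e-05) and -0.67 ± 0.08 (adjusted p = 3.1e-05). Taken as a difference of changes, each from the DMSO library of its own vector, DUSP6 remained called, at -0.30 and -0.35. From that single library, the empty-vector change of DUSP6 was -0.26, with 97.4 TPM in DMSO.

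In T3M-4 the 3 vectors differed in DMSO already, so the choice of control decided the outcome. DUSP4 had 49.1 TPM in the empty-vector DMSO library, 144.9 with RUVBL1 A62T and 98.5 with RUVBL2 dF109, and SPRY4 had 2.24, 9.92 and 6.10 TPM. The RUVBL1 A62T DMSO library exceeded the empty-vector DMSO library by over 0.5 on the log2 scale in 9 of 10 genes and in 30.8% of all genes, and the dF109 library in 5 of 10 and 9.69%. The empty-vector DMSO library held 281001 TPM in ribosomal protein genes, against 198186 and 231858 TPM, and all 10 genes were lower in it than in the mean of the others. With 1 DMSO library per vector, the vector and the library cannot be told apart.

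Against the merged DMSO group, 3 genes fell and none rose with the empty vector in T3M-4 (15.2% and 19.1% of all genes), 8 rose and none fell with RUVBL1 A62T (45.4% and 4.6%), and 3 rose and none fell with RUVBL2 dF109 (34.3% and 3.34%). PHLDA1 fell with the empty vector, to 101, 89.5 and 69.4 TPM from DMSO values of 123, 205 and 149.6 TPM (-0.86 ± 0.17, adjusted p = 0.0025), and with ETV4 (-0.59) and SPRY2 (-0.41) made up the 3. Against the empty-vector DMSO library alone, PHLDA1 was still lower (-0.52), DUSP6 (0.51) and SPRY4 (0.74) were higher, and ETV4 (-0.11) and SPRY2 (-0.14) were not called. Without the empty-vector DMSO library 6 genes were called lower, DUSP4 by 1.18 and SPRY4 by 0.70 on the log2 scale among them, and without the dF109 DMSO library or without empty-vector CB-6644 replicate 2 or 3 the count was 1. Without the RUVBL1 A62T DMSO library 1 was called lower and 1 higher. Of the 8 calls with RUVBL1 A62T, 7 were lost against its own DMSO library. DUSP6 rose by 0.66 against the merged group and by 0.35 (adjusted p = 0.049 in limma) against that library, while DUSP4 went from 0.82 to 0.12 and SPRY4 from 1.08 to 0.29. With RUVBL2 dF109 4 rose against its own DMSO library, a count that again stands without the share of all genes.

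In CB-6644, T3M-4 empty-vector cells had all 10 genes lower than RUVBL1 A62T cells, where 41.4% of all genes were lower and 9.21% higher, and 9 lower than RUVBL2 dF109 cells, against 29.8% and 4.86%. DUSP4 had 58.3, 52.4 and 46.4 TPM with the empty vector, 162, 154 and 157 TPM with A62T and 126, 128 and 120.2 TPM with dF109, without overlap. Its differences were -1.58 ± 0.28 (adjusted p = 0.0014) and -1.25 ± 0.28 (adjusted p = 0.0092). Taken as differences of changes, each from the DMSO library of its own vector, none was called. The DMSO libraries of DUSP4 stood in the same order as the CB-6644 libraries.

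General shifts in these fits ran from -0.27 to 0.33. With scaling, the counts lower and higher were 4 and 3 (empty vector), none and 1 (A62T) and 1 and none (dF109) in AsPC-1, and 5 and none, none and 3, and none and none in T3M-4. The calls over all genes became 3843 lower and 3766 higher, 847 and 784, and 1919 and 1771 in AsPC-1, in place of 2110 and 5783, 243 and 1318, and 503 and 3595. In T3M-4 they became 2233 and 1695 for A62T and 1830 and 1374 for dF109, in place of 617 and 6081 and 447 and 4591. For the empty vector in T3M-4 the scaled calls over all genes are not given here. Between vectors in CB-6644, scaling gave 8 and 6 of the 10 genes lower in T3M-4, with 2923 and 2897 calls and 1810 and 1779 calls over all genes in place of 5552 and 1234 and 3989 and 652. In AsPC-1 it gave 5 lower and 3 higher against A62T, with 3321 and 3206 calls in place of 2311 and 3956.

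Leaving out 1 library also moved counts in these fits. The AsPC-1 A62T calls fell to none without any 1 of the A62T CB-6644 libraries or the dF109 DMSO library. The AsPC-1 dF109 count ran from none, without dF109 CB-6644 replicate 1 or 2 or its DMSO library, to 5 without the empty-vector DMSO library, with 2 without the A62T DMSO library and 3 without dF109 CB-6644 replicate 3. The AsPC-1 difference from A62T fell from 6 to 2 and 3 without A62T CB-6644 replicates 2 and 3, and that from dF109 from 5 to 3 without any 1 dF109 CB-6644 library and to 2 without empty-vector CB-6644 replicate 2. In T3M-4 the A62T count fell from 8 to 5, 5 and 4 without its CB-6644 replicates 1, 2 and 3. The dF109 count fell from 3 to 1 without any 1 of its CB-6644 libraries, its DMSO library or the empty-vector DMSO library, and rose to 8 without the A62T DMSO library. The difference from dF109 fell from 9 to 4 without any 1 dF109 CB-6644 library or empty-vector CB-6644 replicate 2 or 3.

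**Figure D5:**
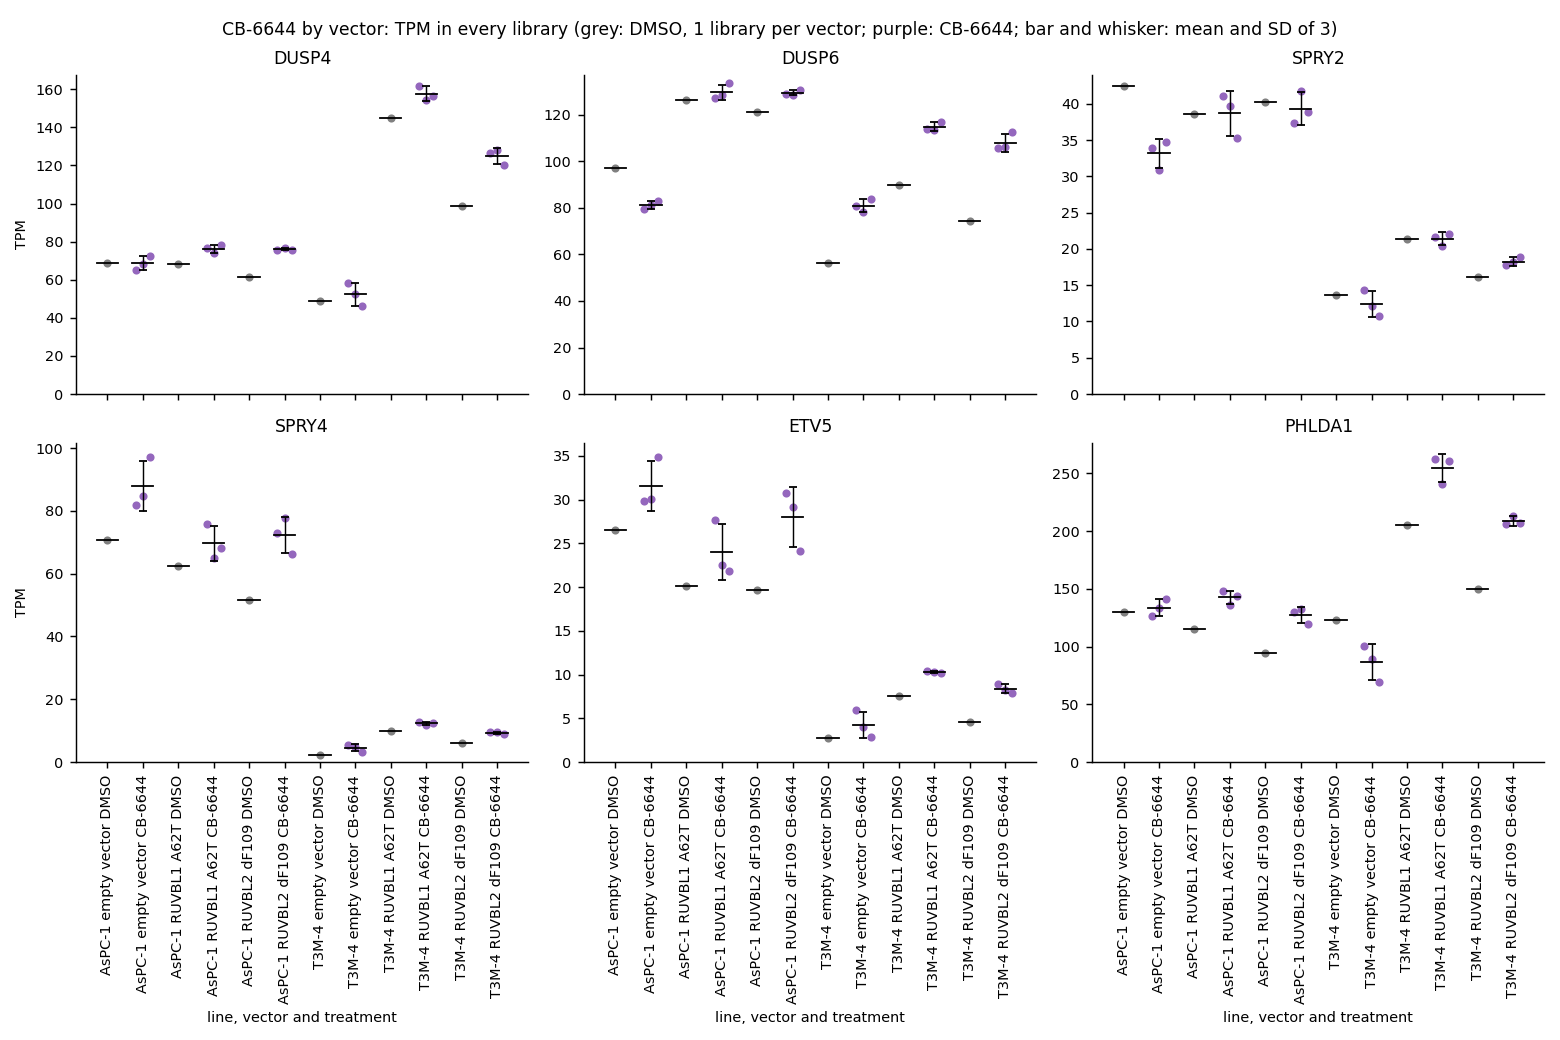
TPM of DUSP4, DUSP6, SPRY2, SPRY4, ETV5 and PHLDA1 in DMSO (grey) and CB-6644 (purple) libraries of AsPC-1 and T3M-4 with the empty vector, RUVBL1 A62T or RUVBL2 dF109, with 1 point per library, and a bar and whiskers for the mean and SD of the CB-6644 libraries. In T3M-4 the 3 DMSO libraries of DUSP4 are at 49.1, 144.9 and 98.5 TPM, in the same order as the CB-6644 libraries, while AsPC-1 DUSP6 in CB-6644 is at 79.4 to 83.1 TPM with the empty vector and at 127 to 133 TPM with the variants.

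In the 4 lines of other tumour types CB-6644 lowered DUSP4, SPRY2 and PHLDA1 in every line and moved the other genes in directions that differed by line. T84 had 4 of 10 lower and 4 higher, against 24.2% and 47.2% of all genes, and A375 7 lower and 3 higher, against 29.7% and 51.5%. H1048 had 4 lower and 3 higher, against 24% and 53.9%, and RH30 4 lower and 4 higher, against 27.3% and 50.4%. The median over the 10 genes was 0.07, -0.28, -0.10 and -0.08 in T84, A375, H1048 and RH30, where the median over all genes was 0.13, 0.16, 0.18 and 0.13.

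DUSP4 changed by -0.70 in T84, -0.61 in A375, -0.31 in H1048 and -0.84 in RH30. In A375 it had 113, 112, 126 and 127 TPM in DMSO and 77.2, 76.8, 78.5 and 77.9 TPM in CB-6644, without overlap. In RH30 the level was low, at 3.67, 4.11, 3.24 and 3.72 TPM in DMSO and 1.53, 1.76, 1.52 and 1.61 TPM in CB-6644. SPRY2 changed by -0.50 in T84, -0.53 in A375, -0.59 in H1048 and -0.42 in RH30. It was called lower in all 6 comparisons of CB-6644 without a resistant variant, empty-vector AsPC-1 and T3M-4 included, and in none of the 4 with a variant. The T3M-4 call (-0.41, adjusted p = 0.045 in limma) rested on the merged DMSO group, whose libraries overlapped those in CB-6644. It was lost against the empty-vector DMSO library (-0.14), without the filter on low values, with the replicate block, with only the groups compared, and without the A62T DMSO library, the dF109 DMSO library or empty-vector CB-6644 replicate 2 or 3, with adjusted p between 0.059 and 0.46. Between empty-vector and variant cells, the difference in change from the own DMSO library was not called for SPRY2 in either line.

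DUSP6 rose in RH30, from 6.84, 7.74, 5.83 and 7.15 TPM to 13.7, 13.6, 13.9 and 14.6 TPM, by 0.93 ± 0.07 (adjusted p = 1e-07). It also rose in T84 (0.28) and A375 (0.17), and in H1048 it had 5.30, 5.15, 6.03 and 5.11 TPM against 5.52, 4.62, 5.10 and 4.54 TPM and was not called. DUSP5 rose in A375 (0.46), H1048 (0.56) and RH30 (0.22) and fell in T84 (-0.31), where it had 36.6, 33.1, 36.5 and 31.7 TPM against 42.6, 43.4, 42.1 and 43.2 TPM.

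ETV5 rose in H1048, from 6.62, 6.88, 6.33 and 6.16 TPM to 11.5, 11.2, 11.7 and 13.1 TPM (0.78 ± 0.06, adjusted p = 2.6e-07), and in T84 (0.33) and RH30 (0.26), and fell in A375 (-0.10). ETV4 fell in A375, to 99.2, 102, 97.3 and 96.9 TPM from 153, 149, 159.8 and 156 TPM (-0.64 ± 0.03, adjusted p = 3.2e-09), and in H1048 (-0.14). SPRED2 rose in T84 (0.58 ± 0.07, adjusted p = 2.3e-06) and A375 (0.20), SPRED1 fell in A375 (-0.38) and rose in RH30 (0.32), and SPRY4 rose in T84 (0.22) and H1048 (0.29) and fell in A375 (-0.17) and RH30 (-0.30). PHLDA1 changed by -0.26, -0.43, -0.49 and -0.10 in T84, A375, H1048 and RH30.

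With scaling the counts lower and higher became 4 and 3 in T84, 7 and 1 in A375, 6 and 2 in H1048 and 6 and 3 in RH30. The calls over all genes were 4280 and 4303, 5304 and 5357, 5136 and 5176, and 4655 and 4603, in place of 2941 and 5725, 3930 and 6821, 3294 and 7391, and 3321 and 6125.

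The other genes of the pathway were counted in 3 lists: 19 core cascade genes from the receptor adaptors to ERK, 13 further feedback paralogs and 14 further ERK output genes. After KLF5 knockout the output genes fell in AsPC-1 experiment 1 (8 of 13 lower, 2 higher), BxPC-3 experiment 1 (9 of 14, none higher) and CFPAC-1 (9 of 14, none higher), and rose in BxPC-3 experiment 2 (6 of 14, none lower), with medians of -0.33, -0.59, -0.42 and 0.40. AsPC-1 experiment 3 had 5 of 13 lower and none higher, with a median of -0.30. T3M-4 had 2 of 13 lower and none higher in experiment 1 (median -0.46), and 2 lower and 3 higher in experiment 2 (median -0.06). SUIT-2 had 1 of 14 lower and 1 higher, with a median of 0.33. The core cascade had at most 5 of 19 called in a KLF5 comparison, in CFPAC-1. After RUVBL1 knockout 11 of 13 output genes rose and 1 fell in T3M-4, together with 12 of 19 core genes higher and 1 lower, and in CFPAC-1 6 of 14 output genes and 11 of 19 core genes fell with none higher. The share of all genes called in these comparisons is that given above. In T3M-4 the median change after RUVBL1 knockout was 0.33 for the core and 0.91 for the output genes, against 0.25 for all genes. In CFPAC-1 these medians were -0.30 and -0.17, against -0.20 for all genes. Counts with scaling are not given for these lists, and the part of the general shift in them was not tested.

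Among the genes of these lists that were called most often, EPHA2, an ephrin receptor gene, fell in both AsPC-1 experiments (-1.18 and -1.18), BxPC-3 experiment 1 (-1.27) and CFPAC-1 (-1.001) after KLF5 knockout and rose after RUVBL1 knockout in AsPC-1 (0.83 and 0.90), T3M-4 (1.29) and BxPC-3 (0.44). SPRY1, the paralog of SPRY2, rose after KLF5 knockout in AsPC-1 (1.51 and 0.83), T3M-4 experiment 2 (0.63) and BxPC-3 experiment 2 (0.37). It fell with CB-6644 in empty-vector AsPC-1 (-1.31) and T3M-4 (-0.80), T84 (-0.71), A375 (-1.45), H1048 (-1.68) and RH30 (-0.55), with the merged DMSO group as the control in AsPC-1 and T3M-4. SOS2, a RAS exchange factor gene, was called higher in 17 comparisons and lower in none, GRB2, an adaptor gene, in 14 and none, and BRAF in 13 and 2. DUSP1, a phosphatase gene acting on several MAP kinases, was higher in 14 and lower in 6, and SPRED3 in 15 and 1. Called as often as SPRED3 were ETV1, higher in 5 and lower in 11, and PHLDA3, higher in 7 and lower in 9, both with a smaller mean size of change. AREG, an EGFR ligand gene, was higher in 12 and lower in 7, and IER3, an early response gene, in 8 and 11. These counts are over at most 39 comparisons with a control. In single comparisons the share of all genes called higher ran from 0% to 53.9%, and that called lower from 0% to 37.3%. The same count over comparisons was not made for all genes, so it is not read as particular to these genes.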

How the data were processed

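Total RNA was sequenced after poly-A selection as single-end reads of 76 bases. The authors used kallisto for pseudo-alignment to hg38 and dropped transcripts of low abundance, at a limit not given in the sources used here. They deposited TPM per gene, summarised with tximport. They excluded 1 RUVBL1 knockout library of T3M-4. Read depth is unknown. Groups were taken from the sample labels.

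From the deposited TPM, log2(TPM + 1) was tested with limma 3.58.1 (R 4.3.3, empirical Bayes with trend) for genes whose mean reached 1 TPM in the libraries of the fit. All libraries of a line and experiment entered 1 fit, and p-values were adjusted over all genes tested by Benjamini-Hochberg, with a threshold of 0.05. The fit was tested on simulated data. Named genes are the 10 members in every comparison and, from each other pathway list, the 3 genes called in the most comparisons, with ties decided by the larger mean absolute change (SPRED3 before ETV1 and PHLDA3). Members and lists were chosen with earlier results of these data known. Alternatives were another pseudocount (0.1), no filter, a minimum of 5 TPM, median-of-ratios scaling, a replicate block, a fit of only the groups compared, other DMSO controls and leaving out each library.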

Additional observations from a re-analysis of the deposited data

Results flagged for a closer look

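Over 295 groups of 4 to 10 libraries of 1 gene, 19 (6.44%) held a library that stood far from the rest of its group by Dixon's test at 95%, where chance gives about 1 in 20. Several fell in the same libraries. SUIT-2 sgRosa replicate 1 was the lowest of 4 for DUSP4 (26.0 TPM), SPRY2 (9.53), ETV4 (20.1) and ETV5 (14.3), and T3M-4 sgRosa replicate 4 of experiment 2 for SPRY2 (12.3 TPM), ETV4 (19.5) and ETV5 (2.49). T3M-4 sgKLF5 replicate 2 of experiment 1 was the lowest for DUSP5 (21.2 TPM) and DUSP6 (15.1), SUIT-2 sgKLF5 replicate 2 for SPRED2 (13.9 TPM) and ETV5 (22.4), and AsPC-1 sgSERPINB5 replicate 4 for DUSP4 (64.6 TPM) and SPRY4 (35.4). Single genes were ETV5 in AsPC-1 sgRUVBL1 replicate 1 of experiment 2 (19.7 TPM) and DUSP5 in CFPAC-1 sgRUVBL1 replicate 4 (24.96 TPM), both lowest, and, as the highest of their groups, DUSP5 in AsPC-1 sgKLF5 replicate 6 of experiment 1 (7.63 TPM), in RH30 CB-6644 replicate 1 (15.5) and in T3M-4 sgRosa replicate 3 of experiment 2 (89.0), and ETV4 in T84 CB-6644 replicate 3 (66.0).

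In 15 cases a gene was called higher in a line with all libraries above its controls, and called lower in another with all libraries below. None of these differences between lines was tested. The value given is the change on the log2 scale in the line where the gene rose. After KLF5 knockout these were DUSP6 in BxPC-3 experiment 2 (0.58) against T3M-4 experiment 2, and PHLDA1 in T3M-4 experiment 2 (0.45) against AsPC-1 experiment 1. After RUVBL1 knockout DUSP6 (0.45) and SPRY2 (0.35) rose in T3M-4 against AsPC-1 experiment 2, and SPRED1 (0.37), ETV5 (0.51) and PHLDA1 (0.36) in T3M-4 against CFPAC-1, while SPRED2 rose in AsPC-1 experiment 3 (0.68) against CFPAC-1 and again after RUVBL2 knockout (0.54). With median-of-ratios scaling the T3M-4 calls of SPRY2 (0.11), SPRED1 (0.12), ETV5 (0.29) and PHLDA1 (0.10) after RUVBL1 knockout were lost. The general shift after RUVBL1 knockout was 0.25 in T3M-4 and -0.20 in CFPAC-1, and its part was not tested. DUSP6 was higher in the CFPAC-1 libraries labelled sgRpa3 (0.49) and lower in BxPC-3. With CB-6644 these were DUSP5 in H1048 (0.56) against T84, DUSP6 in RH30 (0.93) against empty-vector AsPC-1, SPRY4 in empty-vector AsPC-1 (0.52) against RH30, and SPRED1 in RH30 (0.32) and ETV5 in H1048 (0.78) against A375.

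In AsPC-1 the change in CB-6644 from the DMSO library of the same vector differed between vectors in 4 results of the limma test. DUSP6 differed between the empty vector and RUVBL1 A62T by -0.30 (adjusted p = 0.0158), and between the empty vector and RUVBL2 dF109 by -0.35 (adjusted p = 0.00697). DUSP4 differed by -0.31 (adjusted p = 0.0336) and PHLDA1 by -0.39 (adjusted p = 0.0285) from dF109. Each DMSO arm is 1 library, assumed to vary like the other groups. In the dF109 DMSO library DUSP4 (-0.15) and PHLDA1 (-0.38) were below the mean of the other AsPC-1 DMSO libraries, and DUSP6 (0.13) was above it.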

How the results depend on the processing

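Of 188 called results, 88 held under every alternative run for them and without any 1 library, and 69 lost their call without some library. Calls lost were 39 with median-of-ratios scaling, 35 of 142 with a fit of only the groups compared, 19 without the filter, 4 with a pseudocount of 0.1 TPM and none of 182 at a minimum of 5 TPM. A fit with the replicate number as a block lost 26. Of 23 comparisons with 3 or more same-numbered pairs, none had every correlation of deviations over 0.1, so the numbers were not taken as pairs. All were positive in 2, KLF5 knockout in BxPC-3 experiment 2 (0.027 to 0.19) and T3M-4 empty vector against dF109 in CB-6644 (0.047 to 0.18). The DMSO libraries of the vectors carry no number in the labels. With this replicate block, 6 genes in place of 11 were called for CB-6644 with the empty vector and 8 in place of 14 with a variant. With only the groups compared, these were 7 and 7, and RUVBL2 knockout gave 10 in place of 17. Scaling gave 5 in place of the 14. Against the DMSO library of the same vector alone, 7 were past the threshold for the empty vector, and as differences of changes 4 in place of 30 between vectors. There the sign turned for ETV5 (-0.0011) and SPRY4 (-0.17) in AsPC-1 and for DUSP6 (0.16), SPRY4 (0.45 and 0.20) and ETV5 (0.068) in T3M-4, none of them called. For these settings the cause was not tested. Leaving out 1 library gave 31 to 35 calls for KLF5 (33), 27 to 34 for RUVBL1 (32), 14 to 20 for RUVBL2 (17), 8 to 13 for CDK1 and RPA3 (11), 9 to 14 for the empty vector, 10 to 21 for the variants, 24 to 31 between vectors and 32 to 34 for the 4 other lines (33). CHD4 gave 7 and SERPINB5 none throughout, SERPINB5 with 1 of 9 at an unadjusted p under 0.05. Depth is unknown, and the number of libraries limits the precision.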
